A study of Mus musculus with 14 samples.

Results

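The purinergic sensing genes of microglia examined here were 10 genes for receptors of extracellular nucleotides and adenosine and for the enzymes that convert them. They were P2ry12, P2ry13, P2ry6, P2ry2, P2rx4, P2rx7, Adora3, Adora2a, Entpd1 and Nt5e. They were matched by their symbols in the annotation of GRCm38, and each symbol belonged to 1 of the 49315 genes of the count table. A filter on low counts kept 15700 genes for testing, among them 9 of the 10. Adora2a had too few counts and is given by its counts only.

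Messenger RNA was sequenced in bulk from cultured primary microglia of TIMP2 knockout (KO) and wild-type (WT) mice, with 7 libraries per genotype. TIMP2 is a secreted inhibitor of matrix metalloproteinases, and the KO line lacks it in the whole animal rather than in microglia alone. Both groups were mice of postnatal day 6 to 7, labelled C57BL/6 and kept on a C57BL/6J background, and each library came from its own isolation from 5 pups of both sexes, pooled by genotype. The cells were taken from forebrains with CD11b microbeads, plated on poly-d-lysine, kept in culture and collected without any further treatment, so no library shows microglia as they are in the brain.

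ATP and other nucleotides leave cells that are damaged or active, and microglia sense them through P2Y receptors, which couple to G proteins, and P2X receptors, which are ATP-gated cation channels. On the cell surface CD39 (Entpd1) removes phosphates from ATP and ADP to give AMP, and CD73 (Nt5e) turns AMP into adenosine, which acts on its own family of G protein-coupled receptors. Microglia are known for the ADP receptor P2RY12, which guides their processes toward a source of nucleotides, for UDP-triggered phagocytosis through P2RY6 and for activation of the NLRP3 inflammasome through P2RX7.

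The libraries held between 38875344 and 48070236 counted reads. Values are given as counts scaled to a common library total (CPM), with TMM factors, which lay between 0.979 and 1.014. Timp2 itself averaged 122 CPM in KO (SD 3.14, n = 7) against 464 CPM in WT (SD 36.8, n = 7), with no overlap. All 14 microglial markers passed the filter, with Csf1r at 2677 CPM and Cx3cr1 at 1007 CPM on average. Tmem119 was at 1.84 to 6.27 CPM and Siglech at 1.99 to 5.86 CPM. Summed astrocyte markers ranged from 35.5 to 161 CPM in KO and from 40.4 to 307 CPM in WT (p = 0.245, exact permutation, two-sided), and none of the 12 was at 0 in every library. The summed levels of the other 8 marker lists gave p between 0.143 and 0.844 in the same test. In bulk samples, fewer cells of a type and less RNA per cell cannot be told apart.

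The cultures expressed the purinergic genes at very different levels, with the UDP receptor P2ry6 on top and the adenosine-forming enzyme Nt5e at the bottom. Levels of different genes were compared as CPM per kilobase of exon. On this scale P2ry6 was at 51.1 ± 5.15 (SD, n = 14), above 94.6% of tested genes, and P2rx4, an ATP-gated channel, followed at 36.1 ± 3.62. Entpd1 came next at 27.4 ± 3.45. Each of these 3 genes was above the next in the order in 14 of 14 libraries, although the ranges over libraries of neighbouring genes overlapped.

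P2ry13, P2rx7 and P2ry12 formed a group of similar levels, at 19.2 ± 3.6, 18.1 ± 1.04 and 16.3 ± 3.69 CPM per kilobase (SD, n = 14). Within this group the order did not hold across libraries, since P2ry13 was above P2rx7 in 8 of 14 and P2rx7 above P2ry12 in 9 of 14. With the length of the longest transcript in place of all exons, P2rx7 came before P2ry13. Per kilobase of exon P2ry13 was above P2ry12, the second ADP receptor of the set, in 14 of 14 libraries, by 1.19 times on average. The lowest ratio was 1 after rounding. With the longest transcript the means were 19.2 and 17.7. In CPM, without length, KO replicate 3 had 48.9 for P2ry13 and 49.1 for P2ry12, so the order in every library depends on the length used. A gap followed, and the ranges of P2ry12 and Adora3 did not overlap.

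Adora3, a receptor for adenosine, was at 2.89 ± 0.34 and P2ry2, a receptor for ATP and UTP, at 1.79 ± 0.326 CPM per kilobase of exon (SD, n = 14). Both means were under the median tested gene at 3.35 on this scale. With the longest transcript the means were 4.54 and 2.33, and the median on that length was not taken. The place of Adora3 is therefore uncertain, also because it shares exon bases with Tmigd3 on the same strand. Per kilobase of exon P2ry2 was in turn 24.2 times as high as Adora2a, which was at 0.0739 ± 0.032. Nt5e was at 0.0281 ± 0.0109, above 0.198% of the tested genes. The step from nucleotides to AMP and the step from AMP to adenosine were far apart in their messenger RNA. Entpd1 exceeded Nt5e per kilobase by 973 times on average, with 567 and 2068 times as the lowest and highest library. Nt5e had only 6 to 17 counts per KO library and 4 to 16 per WT library, so the ratios of single libraries are imprecise. With the longest transcript as the length the ratio was 597, from 348 to 1269.

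**Figure D1:**
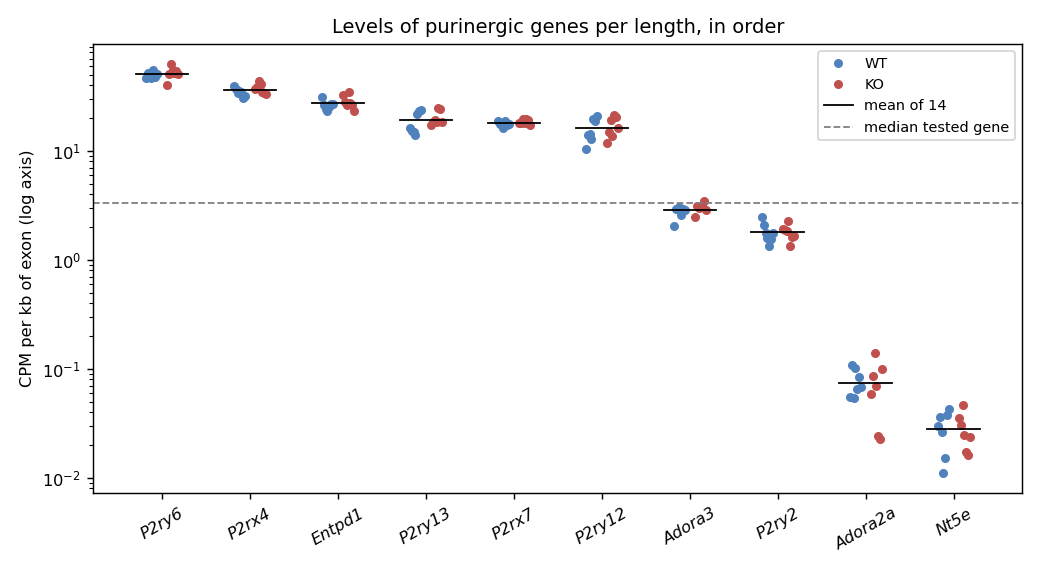
The level of each of the 10 genes is plotted in CPM per kilobase of exon on a log axis, with 1 point per library (7 WT, 7 KO), a bar at the mean of 14 and a dashed line at the median tested gene (3.35). P2ry6 to P2ry12 sit above that line, Adora3 and P2ry2 lie mostly or wholly under it, and Adora2a and Nt5e lie far below.

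KO was compared with WT to ask whether genetic loss of TIMP2 shifts these genes, and none of them passed the test. The paper describes a culture medium with fetal bovine serum for these cells, and it states elsewhere that serum is high in TIMP2. Whether TIMP2 from the medium reached the KO cells was not tested. With edgeR (quasi-likelihood, Benjamini-Hochberg over all 15700 genes, threshold 0.05 on the adjusted p), 0 of 9 members passed, and 0 of 9 had an unadjusted p under 0.05. Of all 15700 tested genes, 3 passed (0.0191%) and 3.37% had an unadjusted p under 0.05. DESeq2 called 0 of the members at either threshold. The KO mean was higher for 7 of the 9 and lower for 2, with a median log2 fold change of 0.09, beside 0.00 and 50.8% higher over all tested genes. The KO and WT libraries overlapped for 10 of 10 members, whereas 0.0828% of tested genes did not overlap.

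**Figure D2:**
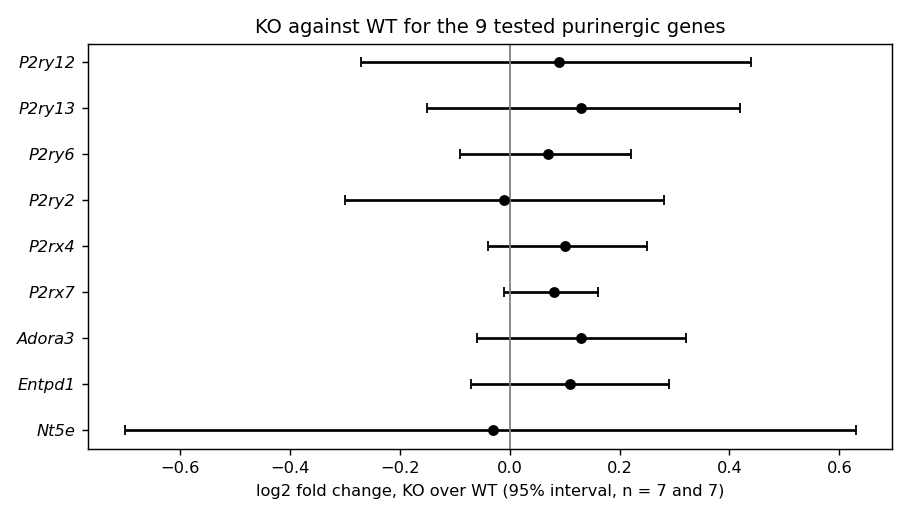
For each of the 9 tested genes the point is the log2 fold change of KO over WT from edgeR and the bar its 95% interval (7 libraries per genotype). All 9 intervals include 0, the narrowest being that of P2rx7 (-0.01 to 0.16) and the widest that of Nt5e (-0.70 to 0.63).

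The ADP receptors P2ry12 and P2ry13 lie next to each other on the minus strand of chromosome 3, P2ry12 (ENSMUSG00000036353) at 59216272 to 59262871 and P2ry13 (ENSMUSG00000036362) at 59207892 to 59210882 in GRCm38, 5389 bases apart. Both lie inside Med12l on the opposite strand, which was at 4.21 CPM in KO and 3.95 CPM in WT and shares 9 exon bases with P2ry12 and 0 with P2ry13. The 250 bases before the RefSeq start of each (GRCm38.p6) are printed because these neighbours varied together between libraries. Those of P2ry2 are added, since it was highest where P2ry12 was lowest, a relation that did not pass after adjustment. Each is read 5′ to 3′ on the minus strand, the strand of the gene. The P2ry12 sequence is chr3:59262986-59263235, that of P2ry13 is chr3:59210883-59211132 and that of P2ry2 is chr7:101012054-101012303. Capitals mark AGGAAGT, a core bound by ETS factors, and GGGCGG, the GC box, on either strand.
P2ry12: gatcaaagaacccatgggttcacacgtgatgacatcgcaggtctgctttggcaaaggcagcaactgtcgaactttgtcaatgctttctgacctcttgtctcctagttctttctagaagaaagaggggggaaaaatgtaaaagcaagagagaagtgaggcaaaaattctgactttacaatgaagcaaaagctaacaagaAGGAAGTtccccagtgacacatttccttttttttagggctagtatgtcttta
P2ry13: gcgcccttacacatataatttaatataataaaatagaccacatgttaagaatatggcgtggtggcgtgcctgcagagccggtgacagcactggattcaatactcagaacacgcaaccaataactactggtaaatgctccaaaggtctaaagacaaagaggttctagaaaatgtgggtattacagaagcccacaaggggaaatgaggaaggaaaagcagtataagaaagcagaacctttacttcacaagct
P2ry2: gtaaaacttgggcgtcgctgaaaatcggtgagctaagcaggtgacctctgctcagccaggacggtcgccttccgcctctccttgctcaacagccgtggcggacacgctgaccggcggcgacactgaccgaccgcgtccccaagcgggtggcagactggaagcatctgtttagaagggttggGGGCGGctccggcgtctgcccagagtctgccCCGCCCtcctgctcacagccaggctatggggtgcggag

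Both ADP receptor sequences were poor in G and C, at 41.6% each, against a median of 52.4% over all 32807 RefSeq windows of this length, and that of P2ry2 was rich, at 65.2%. The windows of the other members lay between 47.2% (Entpd1) and 72% (Nt5e). Whether base content goes with the variation between libraries was not tested. CG pairs numbered 3 for P2ry12, 5 for P2ry13 and 21 for P2ry2, beside a median of 6. AGGAAGT was found 1 time for P2ry12 and 0 times for P2ry13, and 7.69% of all windows hold it. GGGCGG was found 2 times in the window of P2ry2 that is shown, 1 of a pair that overlap, and is in 32.7% of all windows. RefSeq windows were at hand for 8 of the 10 genes. Of these genes, Adora3 was the only one with GAGGAAGT, the longer form of the ETS core that PU.1 binds, which 2.44% of windows hold and which contains AGGAAGT. The AP-1 site TGACTCA was found for Adora3 and P2rx7 (4.47% of windows), and a site of interferon regulatory factors for none (2.97%). Such a match is a description of letters and not a binding site.

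P2ry12 ranged from 30.1 CPM over a median of 41 to 54.1 CPM in KO and from 26.1 CPM over 36.1 to 53 CPM in WT. The groups overlapped over nearly their whole range, and 5 of 7 KO libraries lay above the WT median. The mean was 42.8 ± 9.24 CPM in KO and 40.3 ± 10.1 CPM in WT (SD, n = 7). The fitted log2 fold change of KO over WT was 0.09 ± 0.166 (SE), with a 95% interval of -0.27 to 0.44 (edgeR, adjusted p = 0.965). Its value depended on single libraries, since it was 0.01 without WT replicate 1, the lowest of all 14.

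P2ry13 ranged from 43.1 CPM over 47 to 62.2 CPM in KO and from 35.2 CPM over 40.6 to 59.5 CPM in WT. All 7 KO libraries were above the WT median, but 3 WT libraries, at 54.5, 58.1 and 59.5 CPM, were higher than 5 of the KO libraries. In edgeR the log2 fold change came to 0.13 ± 0.133 (SE) with an interval of -0.15 to 0.42 (adjusted p = 0.943). The log2 ratio of P2ry13 to P2ry12 counts was 0.26 ± 0.172 in KO and 0.21 ± 0.199 in WT (SD, n = 7), with p = 0.603 for their difference by exact permutation.

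P2ry6 encodes the UDP receptor and lies on the minus strand of chromosome 7 at 100937630 to 100974649, and P2ry2 follows on the same strand at 100996568 to 101012866. P2ry6 ranged from 116 CPM over 150 to 180 CPM in KO and from 133 CPM over 146 to 158 CPM in WT. The KO libraries held both the lowest and the highest value, so that the WT range lay inside that of KO. This gave a log2 fold change of 0.07 ± 0.0727 (SE) with an interval of -0.09 to 0.22 (edgeR, adjusted p = 0.943).

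P2ry2, which responds to ATP and UTP alike, ranged from 5.23 CPM over 7.13 to 8.83 CPM in KO and from 5.27 CPM over 6.86 to 9.79 CPM in WT. The means, 7.01 ± 1.13 CPM in KO and 7.06 ± 1.51 CPM in WT, were nearly equal. Its log2 fold change was -0.01 ± 0.135 (SE) with an interval of -0.30 to 0.28 (edgeR, adjusted p = 0.993), that is, folds between 0.813 and 1.21.

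P2rx4 and P2rx7 encode ATP-gated channels and are neighbours on the plus strand of chromosome 5, P2rx7 at 122643911 to 122691432 and P2rx4 at 122707544 to 122729738. P2rx4 forms a channel of high ATP sensitivity that is found largely in lysosomes, and P2rx7 one that needs far more ATP. P2rx4 ranged from 233 CPM over 261 to 306 CPM in KO and from 213 CPM over 246 to 280 CPM in WT, with 4 of 7 KO libraries above the WT median. For P2rx4 the log2 fold change was 0.10 ± 0.0685 (SE) with an interval of -0.04 to 0.25 (edgeR, adjusted p = 0.943).

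P2rx7 had the smallest unadjusted p among the members. It ranged from 102 CPM over 109 to 118 CPM in KO and from 96 CPM over 104 to 113 CPM in WT. The groups overlapped between 102 and 113 CPM, and 6 of 7 KO libraries were above the WT median. The means were 111 ± 5.67 CPM and 105 ± 5.75 CPM (SD, n = 7). From these the log2 fold change was 0.08 ± 0.0396 (SE) with an interval of -0.01 to 0.16 (edgeR, p = 0.0739, adjusted p = 0.943), and an exact permutation of log2 CPM gave p = 0.0868. In folds this interval runs from 0.994 to 1.12. The log2 ratio of P2rx7 to P2rx4 counts was -1.24 in KO and -1.21 in WT (p = 0.719 in the same permutation test). Mir8115, which shares 119 exon bases with P2rx7, had 0 counts in every library.

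Adora3 encodes the A3 adenosine receptor, which couples to inhibitory G proteins. It lies on the plus strand of chromosome 3 at 105870858 to 105908926 and shares 779 exon bases, 20.9% of its own, with Tmigd3 on the same strand, so its count is uncertain. Tmigd3 itself was at 0.2 CPM in KO and 0.158 CPM in WT. Adora3 ranged from 9.16 CPM over 11.5 to 12.9 CPM in KO and from 7.61 CPM over 10.8 to 11.4 CPM in WT. Replicate 1 was the lowest library of each genotype, and the remaining values overlapped. A log2 fold change of 0.13 ± 0.0889 (SE) was fitted, with an interval of -0.06 to 0.32 (edgeR, adjusted p = 0.943).

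Adora2a, the adenosine receptor that couples to stimulatory G proteins, was detected in every library but with only 3 to 18 counts in KO and 8 to 15 in WT. Its level was 0.218 ± 0.127 CPM in KO and 0.234 ± 0.0675 CPM in WT (SD, n = 7), with p = 0.488 by exact permutation of log2 CPM. The 2 lowest values, at 3 counts each, were in KO, and so was the highest. At this depth a small difference could not have been detected.

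Entpd1 lies on the plus strand of chromosome 19 at 40612366 to 40741602. It ranged from 129 CPM over 154 to 195 CPM in KO and from 128 CPM over 147 to 176 CPM in WT. The lowest values of the groups were nearly equal, and 6 of 7 KO libraries were above the WT median. Entpd1 had a log2 fold change of 0.11 ± 0.0855 (SE) with an interval of -0.07 to 0.29 (edgeR, adjusted p = 0.943).

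Nt5e, on chromosome 9 at 88327197 to 88372092, had 6 to 17 counts per KO library and 4 to 16 per WT library. The mean was 0.239 CPM in KO (SD 0.0928, n = 7) and 0.245 CPM in WT (SD 0.101, n = 7). A log2 fold change of -0.03 ± 0.311 (SE) had an interval of -0.70 to 0.63 (edgeR, adjusted p = 0.99), which leaves folds between 0.617 and 1.55 possible. For the other 8 tested members the interval of the fold stayed between 0.813 and 1.36.

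**Figure D3:**
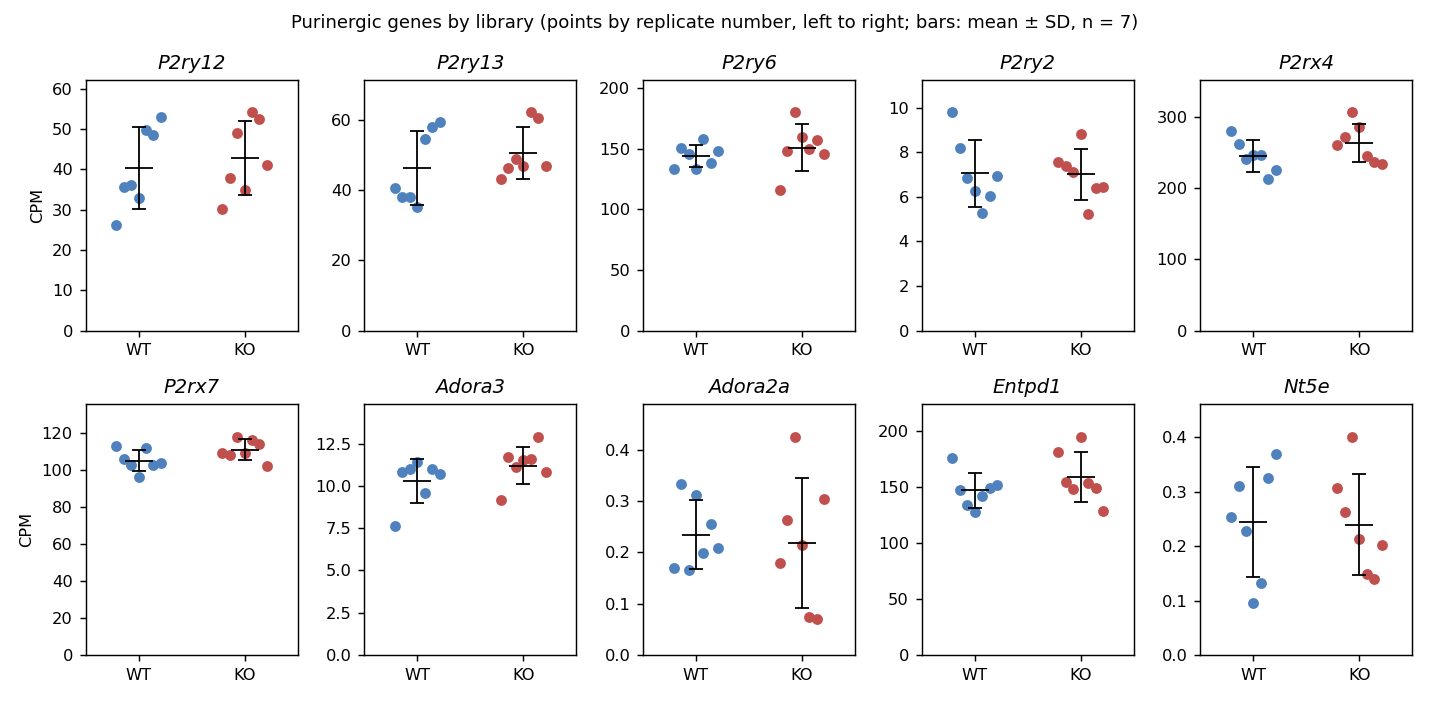
The CPM of each gene in each library is plotted for WT (blue) and KO (red) on axes that start at 0, with points placed by replicate number and bars for the mean ± SD (n = 7). The genotypes overlap in all 10 panels, and P2ry12 and P2ry13 spread far more between libraries than P2rx7.

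The spread between libraries of a genotype was uneven over the members. The SD of log2 CPM within genotype was 0.348 for P2ry12 and 0.272 for P2ry13, but 0.0766 for P2rx7. Set against the 500 tested genes of nearest mean level, P2ry12 varied more than 98.2% of them, P2ry13 more than 96% and P2rx7 more than 59.6%. Entpd1 and P2ry6 varied more than 89.8% and 87% of such genes. From the lowest library, WT replicate 1, to the highest, WT replicate 7, P2ry12 spanned 1.02 on the log2 scale after the genotype mean was removed.

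**Figure D4:**
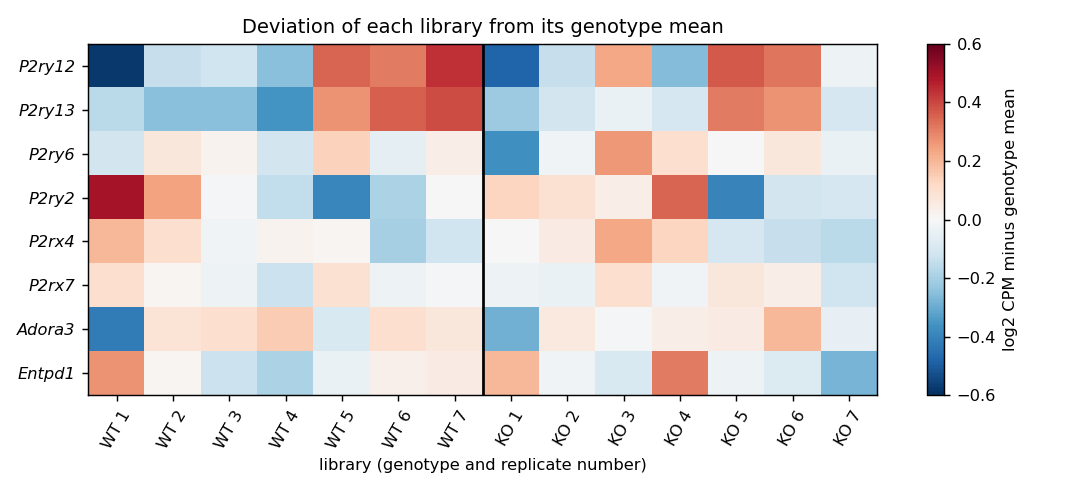
Colour gives the log2 CPM of each library minus the mean of its genotype, for 8 of the tested genes (rows) in 7 WT and 7 KO libraries (columns), from -0.6 (blue) to 0.6 (red). P2ry12 and P2ry13 share most of their signs across libraries, P2ry2 tends to have the opposite sign, and P2rx7 is pale throughout.

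P2ry12 and P2ry13 went up and down together between libraries. Their deviations from the genotype mean had a Pearson r of 0.848 over 14 libraries (100000 permutations within genotype, p = 0.0005, Benjamini-Hochberg adjusted p = 0.018 over 36 pairs of members). The r was 0.875 in KO alone, 0.848 in WT alone and 0.874 without the 2 libraries farthest from the median of P2ry12. Spearman's rho was 0.771 (permutation p = 0.00221), and its adjusted p of 0.0796 missed the threshold. After the fit on summed astrocyte markers was removed, r was 0.837. The permutation p-values take the libraries as independent. Same-numbered KO and WT libraries nevertheless had r of 0.769 for P2ry12 and 0.622 for P2ry13.

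The P2ry12 levels fell on either side of a gap between 41 and 48.5 CPM, with 4 KO and 4 WT libraries below it and 3 of each above. P2ry13 was between 35.2 and 47 CPM in the 8 lower libraries and between 48.9 and 62.2 CPM in the 6 upper ones. Within the 8 lower libraries r was 0.066 and rho -0.071, and within the 6 upper ones r was 0.833 and rho 0.600. The split was drawn after the values were seen and on P2ry12 itself, which narrows its range on each side. What sets the libraries apart was not tested.

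No other pair passed after adjustment, and 7 of 36 pairs, including the first, had an unadjusted permutation p under 0.05. P2ry2 ran against P2ry12, with r = -0.733 (permutation p = 0.00553, adjusted p = 0.0995) and rho = -0.714 (permutation p = 0.00821, adjusted p = 0.148). With the replicate number also removed, by taking KO minus WT within each number, r was 0.067 over the 7 differences, so this relation did not hold there, whereas that of P2ry12 and P2ry13 was 0.792. WT replicate 1, lowest in P2ry12 at 26.1 CPM, was highest in P2ry2 at 9.79 CPM. P2ry2 had r = 0.641 with P2rx4 and 0.638 with Entpd1, and both had an adjusted p of 0.153 by permutation. P2ry12 had r = 0.577 with P2ry6 and 0.563 with Adora3, and the latter was 0.330 without the 2 libraries farthest from the median. P2ry13 had r = -0.554 with P2rx4. Of the other neighbouring members, P2rx4 and P2rx7, 16111 bases apart, had r = 0.409 (permutation adjusted p = 0.331), and P2ry6 and P2ry2, 21918 bases apart, had r = -0.154 (permutation adjusted p = 0.697).

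**Figure D5:**
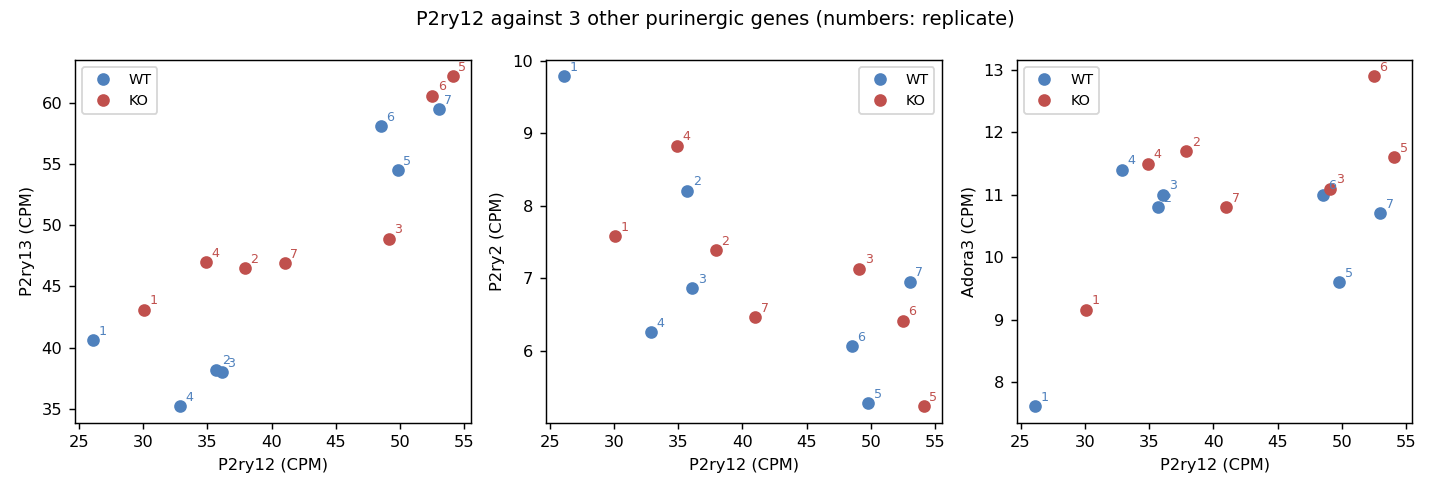
Each panel plots the CPM of P2ry12 on the x axis against P2ry13, P2ry2 or Adora3 on the y axis, with 1 point per library (WT blue, KO red) labelled by replicate number and axes that do not start at 0. P2ry13 is higher in the 6 libraries with P2ry12 above 48 CPM, P2ry2 is highest where P2ry12 is lowest (r = -0.733), and the relation with Adora3 leans on the lowest point at 7.61 CPM.

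P2rx7 ran against the astrocyte RNA of the cultures. Its deviations had r = -0.856 with those of the summed astrocyte markers (n = 14, permutation p = 0.00033, adjusted p = 0.00297 over 9 relations), with rho = -0.837 (adjusted p = 0.00657) and r = -0.785 without the 2 libraries farthest from the median. This relation was looked for after the data were seen. The share of all tested genes with as strong a relation is not given here, so it cannot be called particular to P2rx7. No other member passed, the adjusted permutation p being 0.191 or higher. With the astrocyte sum as a covariate in edgeR the log2 fold change of P2rx7 was 0.03 in place of 0.08, and that of P2ry12 was -0.01 in place of 0.09. It was 0.04 in place of 0.13 for P2ry13, 0.02 in place of 0.07 for P2ry6 and 0.06 in place of 0.11 for Entpd1. For Adora3 it went the other way, to 0.16 from 0.13, and for P2rx4 it was 0.08 in place of 0.10. P2ry2 and Nt5e were both at -0.02, in place of -0.01 and -0.03. The median of the astrocyte sum was 59 CPM in KO and 110 CPM in WT. The part of other cells in these values was not tested further.

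The genes whose deviations were most like those of a member are given as a description over the same 14 libraries, which share depth and culture. For P2ry12 they were Klrg2 with r = 0.949, Herc4 with 0.946 and D430040D24Rik with 0.942, and P2ry13 came 75th of all tested genes. For P2ry13 they were Samsn1 with 0.924, Txndc16 with 0.912 and Tubgcp5 with 0.911. For P2ry6 they were Vav1 with 0.966, Rp2 with 0.959 and Fyb with 0.956.

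P2ry2 was most like Senp6 at 0.944, Mfhas1 at 0.926 and Mgat4b at 0.920. Among the channels, P2rx4 was most like Dars at 0.950, Prkx at 0.948 and Sept8 at 0.928, and P2rx7 was most like Ssh3 at 0.930 and Zbtb6 and Fcgr2b at 0.929 each. Adora3 had its nearest genes at lower values, in Kcnd1 at 0.882, Ssbp2 at 0.875 and Arl4c at 0.868. Entpd1 was most like Scpep1 at 0.953, a lysosomal serine carboxypeptidase, Cd200r4 at 0.935 and Atp6v0d1 at 0.921, a subunit of the vacuolar proton pump. The low counts of Nt5e gave Gm13127 at 0.874, Gm43658 at 0.841 and Arhgap21 at 0.832.

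The wider purinergic pathway was taken from 8 lists with 92 genes, of which 69 were tested. None of the 69 passed in edgeR or DESeq2, and 3 of 69 (4.35%) had an unadjusted p under 0.05 in edgeR, near the 3.37% of all tested genes, 2 with a higher and 1 with a lower KO mean. The KO mean was higher for 36 of 69, and the median log2 fold change was 0.00. A share near the background is no result about these genes, which were Slc29a1, a transporter that carries adenosine across the plasma membrane, Adcy7, an adenylyl cyclase, and Gnai3, an inhibitory G protein subunit. Adcy7 was at 320 ± 11.6 CPM in KO and 306 ± 11.5 CPM in WT and is named after its value was seen. Slc29a1 was at 65 ± 4.27 and 61.4 ± 1.77 CPM, and Gnai3 at 133 ± 3.93 and 139 ± 3.7 CPM (SD, n = 7, edgeR adjusted p = 0.943 for each).

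Among the receptors outside the set, 4 P2Y-like, 2 P2X and 2 adenosine receptors were tested. Gpr34, a receptor for lysophosphatidylserine that is typical of microglia, was at 116 ± 19 CPM in KO and 118 ± 23.1 CPM in WT. P2ry10b had the smallest p of its list, with a log2 fold change of -0.08 (edgeR, adjusted p = 0.943), or -0.11 with the astrocyte covariate. P2rx1 was at 1.25 ± 0.422 CPM in KO and 1.22 ± 0.426 CPM in WT. P2rx6 was at 0.719 ± 0.172 and 0.548 ± 0.174 CPM, a log2 fold change of 0.39 with an interval of -0.11 to 0.88. With the astrocyte covariate the P2rx6 value was 0.36. Adora1, the A1 receptor, was at 0.804 ± 0.483 CPM in KO and 1.4 ± 0.716 CPM in WT, and its log2 fold change of -0.80 ± 0.396 (SE) had an interval of -1.64 to 0.05 (edgeR, adjusted p = 0.943) and was -0.37 with the astrocyte sum as a covariate.

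Of the other ectonucleotidases 8 were tested. Enpp1, which splits ATP into AMP and pyrophosphate, was at 70.3 ± 5.35 CPM in KO and 72 ± 7.02 CPM in WT. Alpl, an alkaline phosphatase that can also form adenosine, was at 0.244 ± 0.2 CPM in KO and 0.579 ± 0.429 CPM in WT, and its log2 fold change of -1.25 ± 0.598 had an interval of -2.53 to 0.03 (edgeR, adjusted p = 0.943). With the astrocyte covariate the Alpl value was -0.40. Its ranges overlapped, from 0.0472 to 0.581 CPM in KO and from 0.0659 to 1.22 CPM in WT.

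Downstream of P2rx7, 10 genes of the inflammasome pathway were tested, and the KO mean was higher for 7, beside 50.8% of all tested genes. Their median log2 fold change was 0.03, and none passed. Nlrp3, the sensor, was at 81.3 ± 11 CPM in KO and 73.2 ± 6.65 CPM in WT. Its log2 fold change of 0.15 ± 0.085 had an interval of -0.03 to 0.33 (edgeR, adjusted p = 0.943) and was 0.11 with the astrocyte covariate. Nek7, its binding partner, was at 236 ± 9.12 and 239 ± 11.6 CPM. Gnai2, among the 26 G proteins and effectors tested, was at 1204 ± 43.6 CPM in KO and 1169 ± 32.4 CPM in WT. In the lists of uptake and release, Slc29a3, a lysosomal nucleoside transporter, had a log2 fold change of 0.06. That of Ank, which acts in the export of ATP and pyrophosphate, was 0.05, and that of Calhm2 was 0.13. With the astrocyte covariate the values were 0.03 for Slc29a3, 0.11 for Ank and 0.05 for Calhm2.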

How the data were processed

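Primary microglia of 7 TIMP2 KO and 7 WT pools were compared. The authors deposited raw counts for each Ensembl gene, without normalization. The submitters' processing notes name Trimmomatic 0.36, STAR 2.5.2b, featureCounts of Subread 1.5.2, DESeq2 and GRCm38. The strand setting, annotation release and batch of each library are not given in the sources used here, so the batch that the study modelled was left out of the fit. Names and positions came from GENCODE M21, which matched 49056 of 49315 IDs. No pair of libraries agreed within sampling noise.

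edgeR 4.0.16 (R 4.3.3) was used to drop low genes (filterByExpr, counts of at least 10 and 15 in total), to scale with TMM and to run its two-sided quasi-likelihood test. P-values were adjusted after Benjamini and Hochberg across the tested genes. The prior count of log2 CPM was 1. DESeq2 1.42.0, a replicate block, an astrocyte covariate, other scalings and filters and each library left out were alternatives. Single values were tested two-sided by exact permutation over 3432 assignments of 7 and 7 (smallest p 0.00058), in Python 3.11.15 with scipy 1.17.1. Scripts were tested on simulated data. The members, marker and pathway lists were chosen with earlier results of these data known. The text names all members, the genes that share exon bases with them and the 3 genes most like each member. Of each pathway list it names the highest gene and that with the smallest p.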

Additional observations from a re-analysis of the deposited data

How the results depend on the processing

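Across 22 other settings, 185 of 197 fold changes of members kept their direction and stayed short of the threshold, 12 changed sign and 0 became called, the smallest adjusted p being 0.684. With the astrocyte covariate the log2 fold change was -0.01 for P2ry12 and -0.15 for P2rx1. Leaving out 1 library at a time gave ranges that crossed 0 for P2ry2 (-0.07 without KO replicate 4 to 0.09 without WT replicate 1), Nt5e (-0.21 without KO replicate 3 to 0.09 without WT replicate 7), Gpr34 (-0.09 to 0.04), P2rx1 (-0.14 to 0.23) and Enpp1 (-0.07 to 0.01). Those of P2ry12 (0.01 to 0.17), P2ry13 (0.07 without WT replicate 4 to 0.20 without WT replicate 7), P2ry6 (0.02 without KO replicate 3 to 0.12 without KO replicate 1), P2rx4 (0.06 to 0.14), P2rx7 (0.05 to 0.10), Adora3 (0.07 to 0.17) and Entpd1 (0.05 to 0.16) did not. The same omissions gave 3 to 4 genes past the threshold over all genes, 0 to 0 members and 0 to 0 pathway genes. Members with an unadjusted p under 0.05 then numbered 0 to 1, namely P2ry6 without KO replicate 1 (0.12) and P2rx7 without KO replicate 7 (0.10), WT replicate 1 (0.10) or WT replicate 5 (0.09), and pathway genes 0 (without KO replicate 5) to 9 (without WT replicate 5), against 3. That pathway count was 5 with DESeq2, 5 with the astrocyte covariate and 1 with upper-quartile factors. DESeq2 called 15 genes in all, against 3. For P2ry12 and P2ry13, rho was 0.771, and r was 0.066 in the 8 libraries below the gap. The stricter filter left no value for Nt5e.

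The main fit did not treat the replicate numbers as pairs. The criterion for pairing asked for every pair and was not met, which cannot exclude that the numbers pair some or all samples. Over all genes, 3 of 7 same-numbered pairs correlated above 0.1, with r from -0.196 to 0.743 over the 7. Of the 7 KO libraries, 1 was most like its own number. Single members did track the number, with r between same-numbered KO and WT libraries of 0.769 for P2ry12, 0.622 for P2ry13 and 0.794 for Adora3, and the block lowered the SE of P2ry12 from 0.166 to 0.0772. The permutation p-values of the correlations take the 14 libraries as independent, and P2ry12 and P2ry13 had r = 0.792 under the replicate block. With the replicate number as a block, edgeR called 3 genes and 0 members, and unadjusted p under 0.05 was reached by 1 member (Adora3, 0.13, adjusted p = 0.792) and 7 pathway genes. DESeq2 with the block called 26 genes and 0 members, with 7 pathway genes under 0.05 unadjusted. In simulated counts, false calls numbered 9 of 156 with edgeR and 15 of 151 with its block. They numbered 31 of 189 with DESeq2 and 50 of 200 with its block, so more calls by DESeq2 need not mean more changed genes. The causes of the shifts between settings were not tested. Counts under 20 per library leave Adora2a and Nt5e without a usable bound on small differences.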
